A study of Mus musculus with 6 samples.

Results

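The interleukin-7 (IL-7) receptor, the JAK kinases and STAT5 factors behind it and the SOCS feedback inhibitors were followed through 10 genes, Il7r, Il2rg, Jak1, Jak3, Stat5a, Stat5b, Socs1, Socs2, Socs3 and Cish. Members were all non-control probes that carry 1 of these gene names on the array, which gave 15 probes for the 10 genes among 55681 probes with 34797 gene names. Testing required detection above background on 1 array or more and processed signals over 50 on 4 or more of the 6, and 14 of the 15 member probes and 20168 probes in all met this limit. The 10 genes each kept at least 1 tested probe, and the fourth Socs2 probe fell below the limit.

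Total RNA came from 1676 cells, a mouse pre-B cell line of the genotype SLP-65-/- LAT-/-, which lacks both adaptor proteins in every group. Cells were infected with a retroviral control vector, a vector for hsa-miR-26a-2 (miR-26a group) or a miR-26 sponge, which offers decoy binding sites to the miR-26 family, and transduced cells were selected with puromycin. All groups were kept in an excess of IL-7 from the supernatant of IL-7-secreting J558L cells. Each group had 2 one-colour arrays, and the repetitions were independent experiments on separately made clones. The titles of the 2 control arrays quote other sample identifiers than their own. Whether these arrays were also part of an earlier series was not checked. Spots well above background numbered 28823 to 29800 of 59305 per array, and 0 spots were saturated. Precision is limited by having 2 arrays a group, and values are log2 normalized signal or differences of it unless another scale is named.

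IL-7 binds a receptor made of the IL-7 receptor alpha chain, encoded by Il7r, and the common gamma chain, encoded by Il2rg, and this receptor carries the growth and survival signal of early B cell precursors. The receptor-bound kinases JAK1 and JAK3 phosphorylate STAT5A and STAT5B, which enter the nucleus and activate genes. Among those genes are Cish and SOCS family members, whose proteins bind receptors or kinases and dampen the signal again.

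The miR-26 family is shown here because the constructs raise or sequester it. The sequences are those of RefSeq on build GRCm38.p6, the capitals mark the seed (bases 2 to 8), and miR-26a and miR-26b share 1 seed. The mature miR-26a is encoded at chr9:119031811-119031832 and again at chr10:126995543-126995564, and miR-26b at chr1:74394324-74394344, all on the plus strand.
mmu-miR-26a-5p: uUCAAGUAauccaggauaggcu
mmu-miR-26b-5p: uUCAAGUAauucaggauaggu
The seed's complement TACTTGA was searched on the printed strand of the 60-base probes, and it occurred in 0 of the 15 member probes and in 240 of 55681 probes (0.431%). This says only that the letters are not in these windows.

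The probes that measured Socs2 and Jak3, for which probes of 1 gene could be set side by side, are given for 1 probe each, read 5′ to 3′ from the array files on build mm9. The Socs2 probe lies at chr10:94875468-94875527 on the minus strand and the Jak3 probe at chr8:74210801-74210860 on the plus strand.
Socs2 probe 3: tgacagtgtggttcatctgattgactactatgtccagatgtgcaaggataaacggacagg
Jak3 probe 2: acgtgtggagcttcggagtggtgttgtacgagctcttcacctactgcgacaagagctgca

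STAT5 dimers recognise the motif TTCNNNGAA, which reads the same on both strands. It was searched in windows from 250 bases before to 50 bases after the start of each gene in RefSeq (GRCm38.p6), which hold 9 of the 10 members in 11 windows, with no entry for Socs2. The motif was present in 3 of these 11 windows, those of Il7r, Socs3 and Cish, and in 2726 of all 32851 windows (8.30%). The Cish window held 2 copies, as more than 1 copy was found in 150 of all windows (0.457%). The stretches around the motif (capitals) lie at chr15:9530000-9530028 on the minus strand for Il7r, at chr11:117969502-117969530 on the minus strand for Socs3 and at chr9:107296654-107296683 on the plus strand for Cish.
Il7r promoter: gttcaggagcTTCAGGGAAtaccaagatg
Socs3 promoter: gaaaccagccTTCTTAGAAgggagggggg
Cish promoter: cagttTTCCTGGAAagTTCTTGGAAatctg
A match is a description of the letters, and binding was not measured.

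The first comparison asked how raised miR-26a changed the transcripts of this pathway. With miR-26a, Socs2 and Socs3 fell, and no receptor, JAK or STAT5 probe passed the test. Over the array, limma called 1036 of 20168 probes lower (5.14%) and 908 higher (4.5%) at a Benjamini-Hochberg adjusted p under 0.05. Of the 14 member probes, 4 were called lower, 3 of Socs2 and 1 of Socs3, and 0 were called higher. Over the 6 tested SOCS and CIS probes the median change was -0.54, with 6 values below 0. These probes stand for 4 genes, as 3 of them read Socs2, and are not separate readings. Of all 20168 probes tested, 9545 had a value below 0. For the 8 receptor, JAK and STAT5 probes the median was 0.07, with 3 values below 0, and for all probes tested it was 0.01. In bulk RNA, fewer cells with a transcript and less RNA per cell cannot be told apart.

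**Figure D1:**
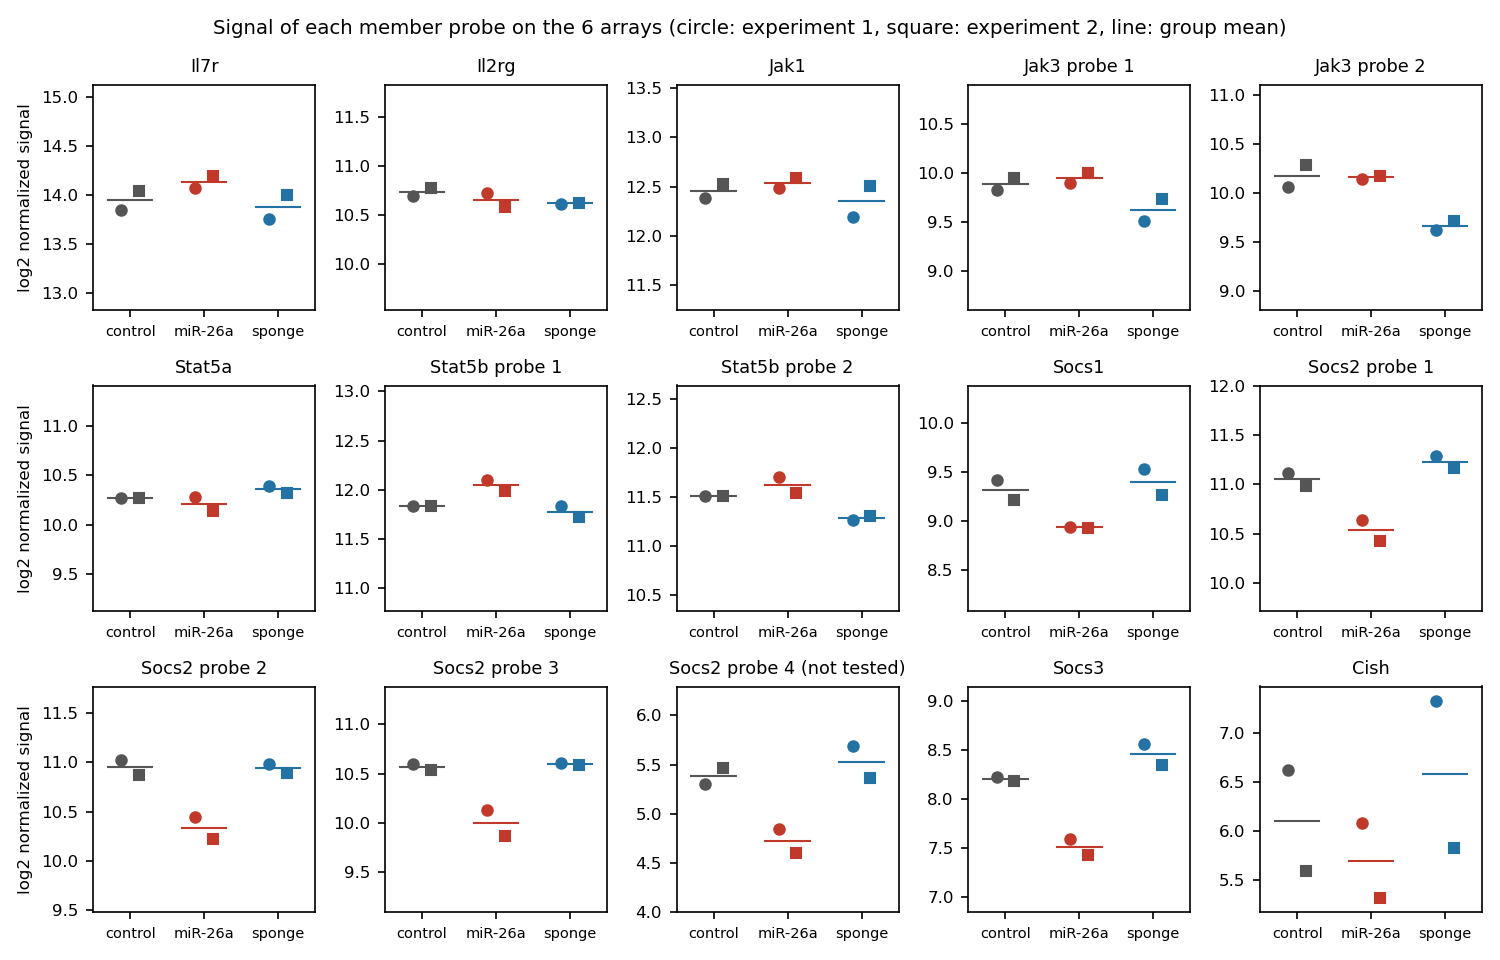
Log2 normalized signal of the 15 member probes on the 6 arrays, in columns for control (grey), miR-26a (red) and sponge (blue), with circles for experiment 1, squares for experiment 2 and lines for group means. Each panel spans the same log2 range around its own middle, and the miR-26a arrays lie below the other groups for Socs1, Socs3 and the 4 Socs2 probes.

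Il7r, the ligand-binding alpha chain, measured 13.85 and 14.04 on the control arrays, 14.07 and 14.20 with miR-26a and 13.76 and 14.00 with the sponge. The miR-26a arrays lay just above the other 4, and the control and sponge ranges overlapped. The change with miR-26a was 0.19 (95% confidence interval 0.01 to 0.36, adjusted p = 0.158 in limma). For Il2rg, the shared gamma chain, the signals were 10.69 and 10.78 in control, 10.72 and 10.58 with miR-26a and 10.62 and 10.62 with the sponge. The miR-26a range spanned the lower control value and the sponge values, and the adjusted p of Il2rg was 0.576 or higher in comparisons with miR-26a and 0.514 for the sponge.

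Jak1, the kinase bound to the alpha chain, gave 12.39 and 12.52 in control, 12.48 and 12.58 with miR-26a and 12.20 and 12.50 with the sponge. All 3 group ranges of Jak1 overlapped, and its changes were 0.08 with miR-26a and -0.11 with the sponge, with adjusted p-values of 0.593 and 0.549. Jak3, the kinase bound to the gamma chain, has 2 probes. Probe 1 (chr8:74214085-74214144) read 9.83 and 9.95 in control, 9.90 and 9.996 with miR-26a and 9.51 and 9.74 with the sponge. Probe 2 read 10.07 and 10.29 in control, 10.15 and 10.18 with miR-26a and 9.62 and 9.71 with the sponge. On both probes the sponge arrays were the low ones and did not overlap the others, while control and miR-26a arrays overlapped. The Jak3 change with miR-26a was 0.06 on probe 1 and -0.02 on probe 2 (adjusted p = 0.661 and 0.931 in limma). The value of probe 2 turned to 0.03 under 75th percentile scaling.

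Stat5a stood at 10.27 and 10.27 in control, 10.28 and 10.14 with miR-26a and 10.39 and 10.32 with the sponge. Its sponge arrays were the high ones by a small margin, with changes of -0.06 (adjusted p = 0.644) for miR-26a and 0.09 (adjusted p = 0.571) for the sponge. Stat5b, the second STAT5 gene, has 2 probes. Probe 1 (chr11:100642045-100642104) gave 11.84 and 11.83 in control, 12.10 and 11.99 with miR-26a and 11.84 and 11.72 with the sponge. Probe 2 (chr11:100642187-100642246) gave 11.51 and 11.50 in control, 11.71 and 11.54 with miR-26a and 11.26 and 11.30 with the sponge. The miR-26a arrays were highest on both probes. Against control the Stat5b changes were 0.21 on probe 1 and 0.12 on probe 2, and neither passed the test (adjusted p = 0.129 and 0.415 in limma).

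Socs1, an inhibitor that binds JAK kinases directly, measured 9.42 and 9.21 in control, 8.94 and 8.93 with miR-26a and 9.52 and 9.26 with the sponge. Both miR-26a arrays lay below the other 4, and control and sponge overlapped. The difference from control was -0.38 (95% confidence interval -0.60 to -0.17), which missed the threshold (adjusted p = 0.0532 in limma). Socs1 was called in 2 of 12 distinct alternative fits (other processing or 1 array left out). These were normexp background correction (adjusted p = 0.0282 in limma) and the fit without the miR-26a array of experiment 2. Among the fits that did not call it, the adjusted p in limma was 0.203 without the experiment block and 0.346 with no filter on dim probes. With an intensity trend in the variance prior, an alternative chosen after seeing the data, it was called under each of the 3 filters on dim probes and not without a filter.

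Socs2, a family member known as a brake on growth hormone signalling, was read by 4 probes, of which 3 lie close together and share their target transcript. Probe 1 (chr10:94875066-94875125) measured 11.11 and 10.99 in control, 10.64 and 10.42 with miR-26a and 11.29 and 11.16 with the sponge. Probe 2 (chr10:94875187-94875246) measured 11.03 and 10.87 in control, 10.44 and 10.22 with miR-26a and 10.98 and 10.90 with the sponge. Probe 3, whose sequence is given above, measured 10.60 and 10.54 in control, 10.12 and 9.87 with miR-26a and 10.60 and 10.58 with the sponge. On all 3 probes both miR-26a arrays were the lowest of the 6 and did not overlap the other groups. The Socs2 signal fell by 0.52 (95% confidence interval -0.69 to -0.35, adjusted p = 0.0146 in limma) on probe 1, to 69.8% of control on the linear scale. On probe 2 it fell by 0.62 (-0.79 to -0.44, adjusted p = 0.0105 in limma). On probe 3 it fell by 0.57 (-0.78 to -0.36, adjusted p = 0.0184 in limma). The fourth probe annotated to Socs2 lies apart at chr10:94848005-94848064 and was not tested. It was well above background on 6 of 6 arrays at 5.30 and 5.47 in control, 4.84 and 4.60 with miR-26a and 5.69 and 5.36 with the sponge, so its miR-26a arrays were also the lowest.

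Socs2 probe 1 is spotted 10 times on each array, which shows the technical spread. The standard deviation over the 10 spots was 0.05 and 0.06 on the control arrays, 0.08 and 0.07 with miR-26a and 0.07 and 0.07 with the sponge. The highest single spot of the miR-26a arrays was 10.81, and the lowest of the control arrays was 10.87. Repeated spots share the RNA of 1 array and were averaged before the test.

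**Figure D2:**
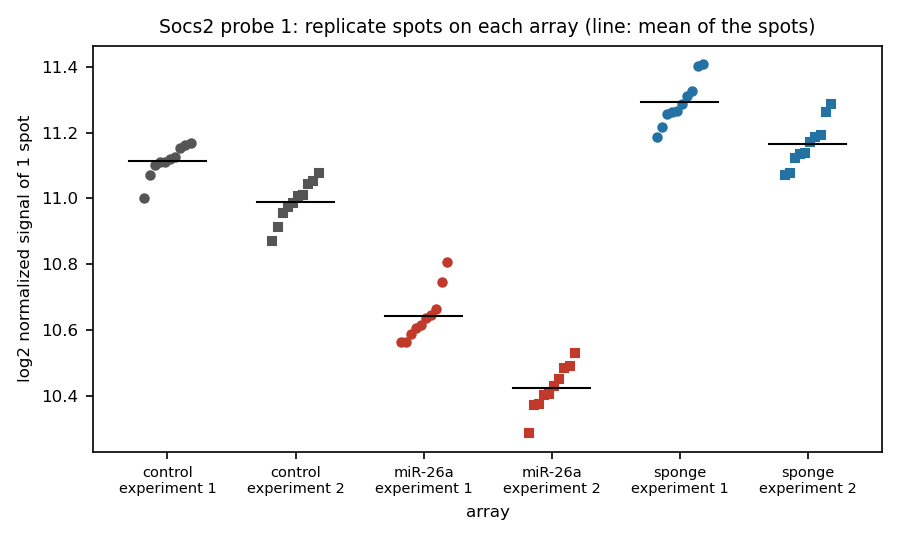
Log2 normalized signal of each of the 10 spots of Socs2 probe 1 on the control (grey), miR-26a (red) and sponge (blue) arrays of experiments 1 and 2, with lines at the mean of the spots. The spots of the miR-26a arrays reach up to 10.81 and lie below every control and sponge spot.

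Socs3, an inhibitor that acts at cytokine receptors and JAK kinases, measured 8.23 and 8.19 in control, 7.59 and 7.43 with miR-26a and 8.56 and 8.35 with the sponge (chr11:117827480-117827539). The groups stood in the order miR-26a, control, sponge without overlap. Socs3 fell by 0.70 with miR-26a (95% confidence interval -0.88 to -0.51, adjusted p = 0.00899 in limma), to 61.7% of control, with differences of -0.64 in experiment 1 and -0.76 in experiment 2. Cish encodes CIS, a classical product of STAT5 activity. Its probe was dim and met the signal limit on 4 arrays, the fewest allowed. It measured 6.62 and 5.60 in control, 6.08 and 5.32 with miR-26a and 7.33 and 5.83 with the sponge. The Cish signal of experiment 1 exceeded that of experiment 2 by 1.02 in control, 0.76 with miR-26a and 1.497 with the sponge, so the 3 groups overlapped, although within each experiment the order was again miR-26a, control, sponge. With experiment as a block the Cish change with miR-26a was -0.41 (95% confidence interval -0.83 to 0.02, adjusted p = 0.199 in limma), and it was -0.16 without the miR-26a array of experiment 1 and -0.66 without that of experiment 2.

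The 4 calls with miR-26a rest on both control arrays and on the choice of probes tested. Without the control array of experiment 1, and likewise without that of experiment 2, the member calls were lost. Most calls over the whole array were lost too, so this is not particular to the members. The change of Socs3 was then -0.77 and -0.62. With no filter on dim probes limma called 0 probes of the whole array. Without the experiment block it called 238 probes lower and 73 higher over the whole array, and 1 member probe, that of Socs3.

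The second comparison asked what the miR-26 sponge did to the same transcripts. The control arrays carried the control vector, and a sponge with scrambled sites was not among the arrays. Sequestering of the miR-26 family and expression of the sponge construct itself therefore cannot be told apart. No member probe passed the test. Limma called 0 of 20168 probes lower (0%) and 2 higher (0.00992%) with the sponge at an adjusted p under 0.05, and 0 of the 14 member probes in either direction. The 2 probes, named after their values were seen, were those of Bbs1 and of NAP059613-1, and after another background correction 26 probes were lower and 10 higher. Before adjustment, 1759 probes had a p under 0.05 and a lower signal (8.72%) and 1488 a higher one (7.38%), and of the member probes 3 were lower and 3 higher. An unpaired t-test left 0 probes after Benjamini-Hochberg adjustment. The lower members at this limit were the 2 Jak3 probes, at -0.27 and -0.51 (adjusted p = 0.229 and 0.191), and Stat5b probe 2, at -0.23 (adjusted p = 0.279). The higher members were Socs2 probe 1 at 0.18 (adjusted p = 0.302), Socs3 at 0.25 (adjusted p = 0.243) and Cish at 0.47 (95% confidence interval 0.05 to 0.90, adjusted p = 0.285). The Cish probe met the signal limit on 4 arrays, the minimum, and was highest with the sponge within each experiment. Its testing may thus rest on the sponge, so its value says nothing firm on direction. It is counted among the 3 higher probes and in the SOCS and CIS median that follows. For the 6 SOCS and CIS probes the median was 0.13, for the 8 receptor, JAK and STAT5 probes -0.11, and for all probes tested 0.00.

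**Figure D3:**
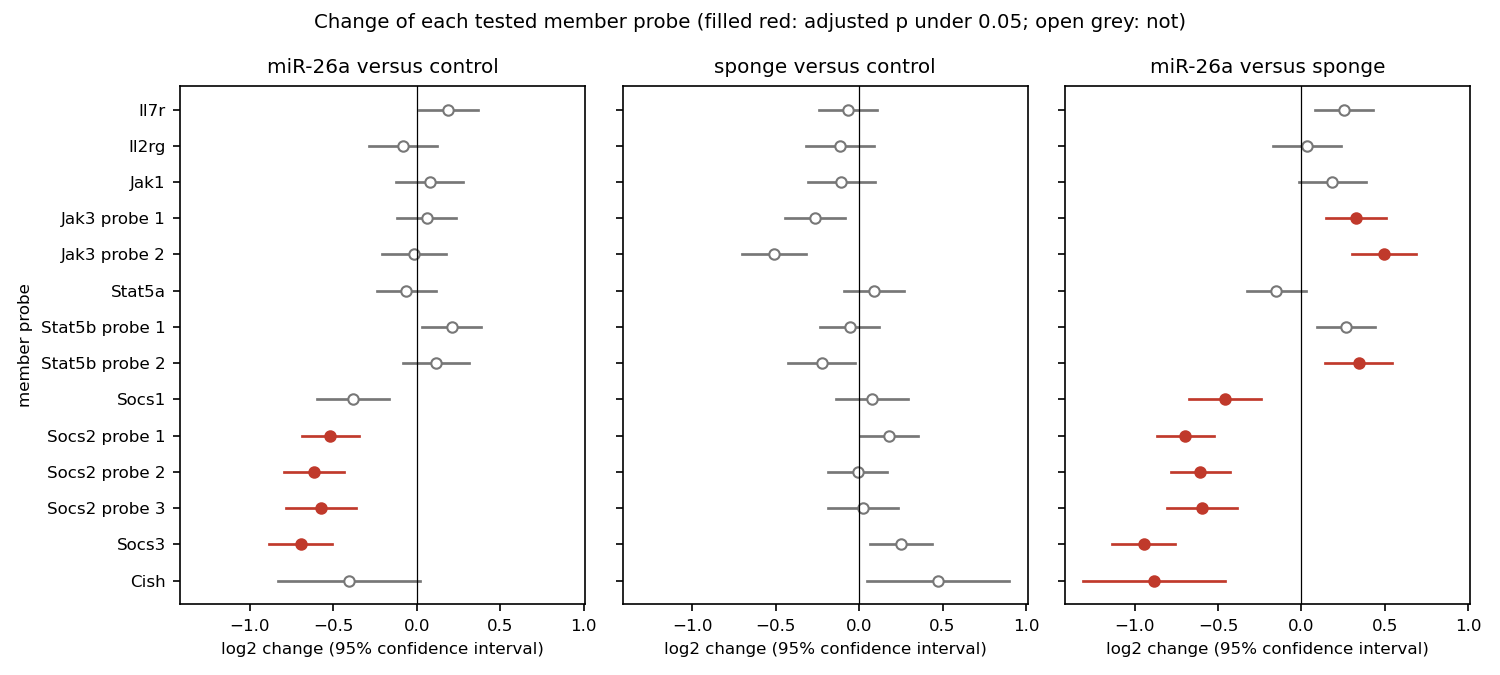
Log2 change of the 14 tested member probes (rows) in the 3 comparisons (panels), with points for the estimate and lines for the 95% confidence interval, filled red where the adjusted p was under 0.05. With miR-26a against control the 3 Socs2 probes and Socs3 are filled, with the sponge against control none is, and between miR-26a and sponge 9 are.

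The third comparison set the 2 constructs against each other, without the control arrays in the difference but with the same estimate of spread. With miR-26a rather than the sponge, tested probes of Socs1, Socs2 and Socs3 were lower, and those of Jak3 and 1 of the 2 Stat5b probes were higher. The Cish probe was also called lower, but it only just met the signal limit, as given below. Limma called 1712 of 20168 probes lower with miR-26a than with the sponge (8.49%) and 1669 higher (8.28%). Of the member probes 6 were called lower and 3 higher. Socs3 fell by 0.95 (95% confidence interval -1.13 to -0.76, adjusted p = 0.0033 in limma), to 51.9% of its sponge level. Socs2 was lower by -0.70, -0.61 and -0.60 on its 3 tested probes, with adjusted p-values of 0.00503, 0.00792 and 0.0125. Socs1 differed by -0.46 (adjusted p = 0.0248) and Cish by -0.88 (-1.31 to -0.46, adjusted p = 0.0262), with -1.25 in experiment 1 and -0.52 in experiment 2. The Cish probe met the signal limit on 4 arrays, the minimum. Its signals in experiment 2 were 5.60 in control, 5.32 with miR-26a and 5.83 with the sponge. Its testing may thus rest on the sponge, the group where it was high, so its call says nothing firm on direction. Jak3 was higher with miR-26a by 0.33 on probe 1 and 0.49 on probe 2 (adjusted p = 0.0363 and 0.0155), where the low arrays were those of the sponge. Stat5b probe 2 was higher by 0.34 (adjusted p = 0.0417), while probe 1 at 0.27 missed the threshold (adjusted p = 0.0576). Il7r at 0.25 also missed it (adjusted p = 0.0634). The 3 comparisons share arrays, so their values stand side by side and are not separate evidence. Without the sponge array of experiment 1, and likewise without that of experiment 2, most member calls were lost. Most calls over the whole array were lost too, so this is not particular to the members. With no filter on dim probes 0 probes of the whole array were called. Without the experiment block limma called 632 probes lower and 365 higher, and of the members only the 3 Socs2 probes and Socs3. The adjusted p in limma was then 0.421 for Cish, 0.0974 for Socs1, 0.156 and 0.0557 for the Jak3 probes and 0.0902 for Stat5b probe 2.

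Socs3 had the smallest p over the 3 groups among the member probes. The 5 other named genes whose signal ran most like it over the 6 arrays, by Pearson correlation across these arrays as a description, were Vopp1 (r = 0.9985), U2af1l4 (0.998), Il33 (0.998), Mob1a (0.997) and Bnip3 (0.997). Likeness of pattern says nothing of size. Il33, which encodes a cytokine of the interleukin-1 family, measured 8.83 and 8.80 in control, 8.10 and 8.01 with miR-26a and 9.21 and 8.94 with the sponge, whereas the change of U2af1l4 with miR-26a was -0.10 (adjusted p = 0.378).

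Around the members, 55 further genes of the pathway were read by 81 probes, of which 62 were tested. With miR-26a 4 of these 62 were called lower and 1 higher, with the sponge 0 in either direction, and between miR-26a and sponge 6 were lower and 8 higher. Of all probes tested 5.14% were called lower and 4.5% higher with miR-26a against control, and 8.49% and 8.28% between miR-26a and sponge. The 14 calls between the constructs fell to 3, those of Il2ra, Stat4 and Ptpn1, without the sponge array of experiment 1, to 0 without that of experiment 2 and to 3, those of Il2ra, Il15ra and Ptpn1, without the experiment block. None of the 7 ligand genes, Il7, Tslp, Il2, Il4, Il9, Il15 and Il21, had a tested probe, and 6 of their 7 probes were well above background on 0 arrays. Tslp exceeded background on 1 array, that of the sponge in experiment 2.

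Of the other receptor chains, 6 probes of 5 genes were tested, and 2 were called lower with miR-26a. Crlf2, the receptor chain for TSLP that pairs with the IL-7 receptor alpha chain, measured 14.01 and 14.18 in control, 13.53 and 13.85 with miR-26a and 13.94 and 14.17 with the sponge. Both miR-26a arrays were below the other 4, and Crlf2 fell by 0.41 (adjusted p = 0.0288). The Crlf2 call was lost without the control array of experiment 1 or 2 (adjusted p = 0.23 and 0.155), without the miR-26a array of experiment 1 (0.0911), without the experiment block (0.242) and with only the 4 arrays compared (0.0624). Il2ra, the alpha chain of the IL-2 receptor and a well-known STAT5 target, measured 10.41 and 10.41 in control, 9.73 and 9.61 with miR-26a and 10.27 and 10.52 with the sponge. Il2ra fell by 0.74 with miR-26a (adjusted p = 0.0155), a call lost without either control array (0.129 and 0.109). The median over the 6 probes was 0.02. Between miR-26a and sponge 2 of these probes were called lower and 1 higher. The lower ones were Il2ra by -0.73 (adjusted p = 0.0124 in limma) and Crlf2 by -0.36 (adjusted p = 0.0279 in limma). That Crlf2 call was lost without the experiment block (0.208). An Il15ra probe was higher with miR-26a than with the sponge by 0.55 (adjusted p = 0.018), while a second one of that gene differed by 0.12 (adjusted p = 0.291).

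Among the other JAK and STAT genes, 8 probes of 6 genes were tested, and that of Stat4 was called. Stat4, the factor downstream of IL-12, measured 8.44 and 8.07 in control, 7.60 and 6.89 with miR-26a and 8.65 and 8.38 with the sponge. It fell by 1.01 (95% confidence interval -1.31 to -0.72, adjusted p = 0.0106 in limma), to 49.5% of control, and was -1.27 lower than with the sponge (adjusted p = 0.00435). Without the control array of experiment 1 or 2 the Stat4 change against control was not called (adjusted p = 0.0766 and 0.0925), nor without the experiment block (0.13). The probes of Jak2, Tyk2, Stat2, Stat3 and Stat6 lay between -0.05 and 0.16 with miR-26a and none was called. The list's median was 0.01.

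The other SOCS genes and negative regulators had 24 tested probes of 17 genes, with a median of 0.07 and 17 values above 0. With miR-26a the only call was a Cblb probe, lower by -0.35 (adjusted p = 0.0414), and a second Cblb probe stood at 0.18 (adjusted p = 0.673). That call was lost whenever 1 array was left out, at an adjusted p of 0.296 and 0.192 without the control arrays, 0.0971 and 0.123 without the miR-26a arrays and 0.064 without either sponge array, and without the experiment block (0.269). Cblb encodes a ubiquitin ligase that restrains receptor signalling. The relatives Socs4, Socs5, Socs6 and Socs7 were not called, with changes of 0.11, -0.18, -0.10 and 0.04 for the Socs6 probes, and 0.27, in that order. Between miR-26a and sponge, a Socs6 probe was lower by -0.31 (adjusted p = 0.0457), called in 2 of 12 distinct alternative fits (other processing or 1 array left out). Higher in that comparison, though called in only 4 of these 12 fits apart from Ptpn1 (9), were probes of Ptpn1 by 0.70 (adjusted p = 0.0057), Pias1 by 0.39 (adjusted p = 0.0411), Pias4 by 0.38 (adjusted p = 0.0257), Ptprc by 0.38 (adjusted p = 0.0267) and Sh2b3 by 0.38 (adjusted p = 0.0315). The other tested probes of these genes were not called and stood at 0.02 for Socs6, 0.10 for Ptpn1, -0.05 and 0.12 for Pias1 and 0.18 for Sh2b3. The list holds phosphatases, ubiquitin ligases, adaptors and SUMO ligases, and its probes did not move in 1 direction.

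The transcriptional regulators of Il7r, among them Foxo1 and the ETS factors Sfpi1 and Gabpa, had 12 tested probes of 7 genes. Of these 0 were called with miR-26a, with a median of -0.11 and the value largest in size -0.29, of a Gabpb1 probe (adjusted p = 0.103). That probe was -0.53 lower with miR-26a than with the sponge (adjusted p = 0.0176), and the other 2 Gabpb1 probes were not called.

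The list of genes known to respond to STAT5 had 12 tested probes of 9 genes, with a median of 0.01 and 6 values on each side of 0. It leaves out the SOCS members, Cish and Il2ra, which are given above. Their tested probes were all below 0 with miR-26a against control, so this median does not cover them. Myc, a driver of growth, was the 1 call with miR-26a. It measured 11.79 and 11.31 in control, 12.34 and 11.92 with miR-26a and 11.996 and 11.36 with the sponge. Within each experiment the miR-26a array was the highest, and the change was 0.58 (95% confidence interval 0.38 to 0.79, adjusted p = 0.0154 in limma), which was not called without either control array (adjusted p = 0.141 and 0.119) or without the experiment block (0.358). Pim1 stood at -0.18 (adjusted p = 0.164), Osm at -0.06 (adjusted p = 0.815), Bcl2 at 0.08 (adjusted p = 0.707) and Bcl6 at 0.08 (adjusted p = 0.514). The brightest Bcl2l1 probe stood at -0.15 (adjusted p = 0.279). Ccnd2 was well above background on 0 arrays. Between miR-26a and sponge a Ccnd3 probe was higher by 0.56 (adjusted p = 0.0159), Myc by 0.46 (adjusted p = 0.021), and a Mcl1 probe lower by -0.28 (adjusted p = 0.045), while the second probes of Ccnd3 and Mcl1, at 0.17 and -0.24, were not called.

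**Figure D4:**
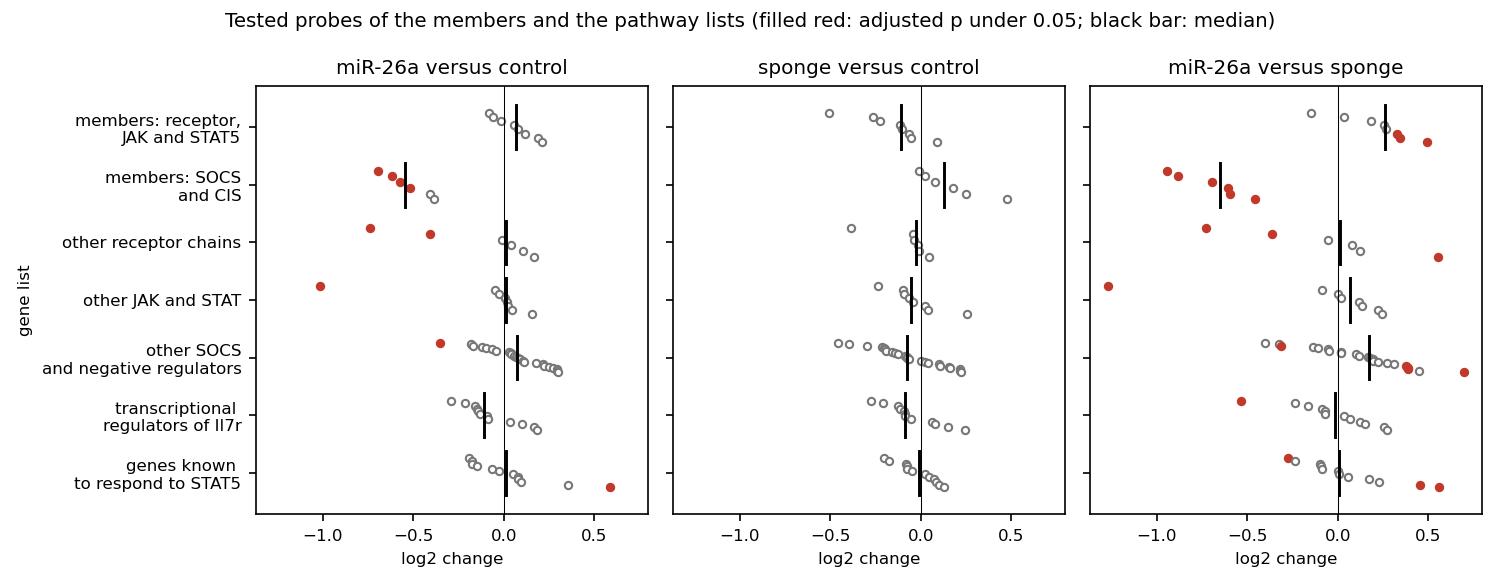
Log2 change of each tested probe of the members (in 2 rows) and of the 5 pathway lists with tested probes, for the 3 comparisons, filled red where the adjusted p was under 0.05, with black bars at the median. With miR-26a against control the SOCS and CIS row (6 probes of 4 genes, 3 probes of Socs2) has its median at -0.54. The medians of the pathway lists lie between -0.11 and 0.07.

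The cells' identity was checked on markers. All 8 probes of 6 pre-B genes (Cd79a, Cd79b, Vpreb1, Igll1, Pax5 and Ebf1) exceeded background clearly on each array, Vpreb1 the brightest, and 0 were called with miR-26a or the sponge against control. Between miR-26a and sponge 1 was called, a Pax5 probe lower by -0.36 (adjusted p = 0.028), which stood at -0.27 against control (adjusted p = 0.0744). Their summed linear signal was 411884 and 437254 in control, 400209 and 423664 with miR-26a and 404481 and 447892 with the sponge. T cell genes gave a sum of 1432 and 1404 in control, 1318 and 1460 with miR-26a and 1090 and 1228 with the sponge, with Cd4 the brightest, 2 of 8 probes well above background on all arrays and Cd3g and Cd8a on none. Natural killer genes summed to 104.02 and 106.67 in control, 63.2 and 92.5 with miR-26a and 87.6 and 94.0 with the sponge. Only 1 of those 5 probes, of Klrb1c, was well above background on all arrays, while Ncr1 and Eomes were on none. The erythroid genes Klf1 and Hbb-b1 summed to between 23.4 and 30.3 on every array, led by Klf1, with Hbb-b1 above background on none.

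Myeloid genes summed to 3677 and 4832 in control, 3900 and 4561 with miR-26a and 3130 and 4562 with the sponge, led by Itgam. Of their 11 probes, 5 stood clear of background on all 6 arrays, and 2 did so on none. A single Itgam probe was called lower with miR-26a, at -0.82 (adjusted p = 0.0072), while the brightest Itgam probe stood at 0.06 (adjusted p = 0.744). Lyz1, too dim to be tested and well above background on 5 of 6 arrays, measured 5.62 and 4.97 in control, 4.33 and 2.40 with miR-26a and 6.33 and 4.92 with the sponge. Lyz2, above background on 1 array, measured 3.56 and 1.57 in control, 1.33 and 1.38 with miR-26a and 4.14 and 3.07 with the sponge, so both genes were lowest on the miR-26a arrays, while the 3 Csf1r probes stood at 0.49, -0.08 and -0.04 with miR-26a against control. The part of other cells in the SOCS values was not tested. The probes of Blnk, the gene of SLP-65, and of Lat were bright on all arrays. Blnk measured 15.37 and 15.60 in control, 14.90 and 15.08 with miR-26a and 15.61 and 15.59 with the sponge, and Lat between 10.10 and 10.30. Blnk was called lower with miR-26a than with control, by -0.49 (adjusted p = 0.0275), and than with the sponge, by -0.61 (adjusted p = 0.0123), and Lat was not called. Where these probes lie relative to the deleted parts is not given in the sources used here, so they do not check the genotype.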

How the data were processed

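Labelled RNA was read with Agilent 1-colour arrays. The authors deposited intensity values per spot from Agilent Feature Extraction (version 10.7.1.1 per the labels), background-subtracted and detrended, and a table of quantile-normalized intensity. Control spots and outlier spots were left out, quantile normalization between arrays came first, then log2 and the mean over a probe's spots. Probe signals were fitted with limma 3.58.1 in R 4.3.3 on the 6 arrays, with group and experiment as terms, with Benjamini-Hochberg adjustment over the 20168 probes tested. The variance prior had 3.56 degrees of freedom, and 2 remained for each probe. On simulated data the fit missed a large share of changes of the size seen in the members, and its recovery was judged on larger changes after it fell short on smaller ones, so a probe not called may still differ. Experiment was a block because the design describes independent experiments with clones made for each repetition. Differences between the experiments correlated across probes between groups at 0.379, 0.588 and 0.454. All arrays lie on the same slide, with each experiment in a slide row of its own, so experiment and row cannot be told apart.

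Named genes were every member, each pathway list probe with an adjusted p under 0.05 in any comparison, the probe of each list with the change largest in size under miR-26a, and the 5 genes most correlated with the member of the smallest p. Further genes of the lists, such as Pim1, Bcl2 and Socs4, were named after their values were seen. Members and lists were chosen with earlier results of these data known. Some marker genes are not reported here, and their lists were summed without them. Gene names are those of the array design. Figures were drawn with matplotlib in Python.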

Additional observations from a re-analysis of the deposited data

How the results depend on the processing

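Socs2 and Socs3 were lower with miR-26a than with control under each of the 12 distinct alternatives, at -0.46 to -0.68 for the tested Socs2 probes and -0.55 to -0.77 for Socs3, but their calls were not always kept. Socs3 was called in 8 of 12 and the Socs2 probes in 6, 7 and 6. Among the pathway calls with miR-26a, Il2ra and Stat4 were called in 7 of 12, Myc in 6, Crlf2 in 4 and Cblb in 2, and Socs1, not called as reported, in 2. Leaving out an array of the group outside a comparison repeats the fit on the 4 arrays of that comparison and is counted once. Over miR-26a against control, the arrays gave 1036 lower, 908 higher, 4 member and 5 pathway calls, over the sponge against control 0, 2, 0 and 0, and over miR-26a against sponge 1712, 1669, 9 and 14.

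Without the experiment block, the pairing of the arrays, the calls in that order were 238, 73, 1 and 1 with miR-26a against control and 632, 365, 4 and 3 against the sponge, and sponge against control kept its counts. The cause was not tested. With only the 4 arrays of a comparison they were 635, 488 and 3 pathway calls with miR-26a, 22 lower and 13 higher with the sponge, and 1104, 779, 6 member and 7 pathway calls between the constructs, where Socs1, a Stat5b probe and a Jak3 probe were no longer called. Member calls stayed at 4 with miR-26a and 0 with the sponge. Scaling to the 75th percentile gave 1 lower probe with the sponge, and normexp background correction 26 lower and 10 higher.

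With no filter on dim probes 0 probes were called in any comparison. The variance prior then had 1.04 in place of 3.56 degrees of freedom, and the median standard deviation was 0.127 in place of 0.0747. With probes well above background on all 6 arrays the calls were 382, 191, 2 and 1 with miR-26a, 0 higher with the sponge, and 900, 628, 5 and 4 between the constructs. An unpaired t-test called 0 probes after Benjamini-Hochberg adjustment in all comparisons. At an unadjusted p under 0.05, or 0.1 for the sponge against control, and with no limit on the size of the change, which the methods also set, it gave 1331 lower and 1348 higher with miR-26a, 1471 and 1038 with the sponge and 1302 and 1424 between the constructs.

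Leaving out 1 array at a time gave 75 to 916 lower, 29 to 683 higher, 0 to 5 member and 0 to 4 pathway calls with miR-26a, 0 to 22 lower and 0 to 13 higher with the sponge, and 285 to 1349 lower, 125 to 1087 higher, 1 to 8 member and 0 to 11 pathway calls between the constructs. A lone array was assumed to vary like the other groups.

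Other variance priors were chosen after seeing the data, in 15 further combinations with 4 filters for miR-26a against control (1944 probes and 4 member probes as reported). An intensity trend called 2951, and 3371 with a robust prior. Without a filter the constant, trend and robust priors called 0, and trend with robust 64, with 0 member probes throughout. On probes above background on all 6 arrays the constant and robust priors called 573 and 531, with 2 member probes each, and trend with robust 3292. On probes above background on at least 1 array the constant and robust priors called 0, with 0 member probes, and trend with robust 3108. With an intensity trend and any of the 3 filters, with or without the robust prior, 5 member probes were called, those of Socs1, Socs2 and Socs3.

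Signs turned for some values, none of them called either way. Under 75th percentile scaling these were Jak3 probe 2 with miR-26a (0.0282) and, with the sponge, Il7r (0.0159), Stat5b probe 1 (0.00745), Socs2 probe 2 (0.0308), Crlf2 (0.0284) and Il2ra (0.0177), and after normexp Il2ra (0.032). Leaving out 1 array gave, with the sponge, ranges of -0.00252 to 0.156 for Socs1, -0.0619 to 0.0425 and -0.0423 to 0.0931 for Socs2 probes 2 and 3, -0.0949 to 0.00811 for Crlf2, -0.166 to 0.143 for Il2ra and -0.176 to 0.00234 for a Sh2b3 probe. With miR-26a they were -0.176 to 0.0108 for Il2rg, -0.0974 to 0.0667 for Jak3 probe 2 and -0.177 to 0.0436 for a Pias1 probe, and for Il2rg between the constructs -0.0601 to 0.127. Slide as a block was not run, since all arrays share a slide. Signal over background limits the ligands and Ccnd2, and low signal the fourth Socs2 probe.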
